A study of Mus musculus with 6 samples.

Results

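The expression of 9 genes that set the chloride content and the volume of brain cells was followed in the hippocampus of mice with a reduced gene dose of TonEBP. They were taken by symbol: the cation-chloride cotransporter genes Slc12a2, Slc12a4, Slc12a5 and Slc12a7, the kinase genes Wnk1, Wnk2, Stk39 and Oxsr1, and Lrrc8a, a subunit gene of the volume-regulated anion channel. All 9 symbols were found among the 24346 listed in each file. Hippocampal RNA of C57BL/6 mice aged 12 months was sequenced, with 3 libraries of wild-type genotype (WT 1 to WT 3) and 3 of genotype TonEBP+/- (HET 1 to HET 3). TonEBP (tonicity-responsive enhancer binding protein) is encoded by Nfat5 and switches on genes that protect cells from osmotic stress, and the heterozygous animals and their wild-type littermates came from crosses of TonEBP+/- parents, back-crossed to C57BL/6J. The allele is carried by the whole animal and is not limited to a cell type. The part of the gene that was disrupted, the sex of the mice and whether each library is a single animal were not given in the sources used here. The p-values therefore measure the spread between these libraries.

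Cells take up or release chloride together with sodium and potassium, and water follows. NKCC1, the product of Slc12a2, carries chloride inward, and the potassium-chloride cotransporters KCC1 (Slc12a4), KCC2 (Slc12a5) and KCC4 (Slc12a7) carry it outward. In mature neurons KCC2 keeps internal chloride low, which makes GABA inhibitory. WNK kinases sense chloride and osmotic state and switch on SPAK (Stk39) and OSR1 (Oxsr1), a pair of closely related kinases that activate NKCC1 and inhibit the KCC transporters by phosphorylation. LRRC8A is the subunit that every volume-regulated anion channel needs, and these channels let chloride and organic osmolytes out of swollen cells.

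Abundance is given in FPKM (fragments scaled by transcript length and library depth), read from deposited log2(value + 1). Differences are on that log2 scale, TonEBP+/- minus wild type, and are smaller there than on the linear scale for genes with low values. Low values lay on steps that corresponded to an estimated 7860000 (HET 1) to 12600000 (HET 3) fragments per library. Markers of neurons, of hippocampal fields, of glia and of vessels were all present in the 6 libraries, with 0 of the markers at 0 throughout. For the disrupted gene Nfat5 the 3 wild-type libraries gave 10.5, 8.39 and 9.72 FPKM and HET 1 to HET 3 gave 8.25, 9.31 and 8.42 FPKM, so the genotypes overlapped. Its log2 difference in limma was -0.12 (SE 0.0963, 95% interval -0.34 to 0.09). A loss of 50% of the Nfat5 transcript would lie at -0.87, outside this interval, so no halving of it was seen. Such a value over the whole gene is no check of the labels, and each direction given here is that of the label.

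None of the chloride and volume genes differed between genotypes beyond the spread of the libraries. Of the 9 members, 8 reached 1 FPKM in at least 3 libraries and were tested. With limma, 0 of these 8 passed an adjusted p of 0.05, against 0% of the 13122 genes tested (smallest adjusted p of any gene 0.383). At an unadjusted p under 0.05 there were 0 of 8 members, against 3.69% of all genes tested (484 genes). The genotypes did not overlap in 0 of 9 members and in 8.52% of all genes tested. All 8 tested differences were below 0, from -0.22 in Wnk1 to -0.02 in Slc12a4, with a median of -0.07. The median of all genes tested was 0.00, so the genes as a whole lay about evenly on both sides of 0. Slc12a2, Slc12a4 and Stk39 shared a pattern over the libraries, as given below, so the 8 directions are not independent. Whether their common direction exceeds what shared patterns would give was not tested. Markers of the thalamus, which lies next to the hippocampus, and of the habenula summed to 211 to 235 FPKM in wild type (9 of 9 above the filter). In HET 1 to HET 3 they summed to 233, 128 and 128 FPKM. Among them Tac2 went the other way, at 1.34 to 1.53 FPKM in wild type and 1.95 to 2.36 FPKM in TonEBP+/-. With the mean of these markers as a covariate, the estimates of Slc12a2, Slc12a4, Wnk2 and Oxsr1 were 0.02, 0.07, 0.01 and 0.06. Their SEs were 0.191, 0.155, 0.213 and 0.101, larger than without the covariate. The estimate of Slc12a5 moved from -0.09 to -0.18 (SE 0.159). Those of Wnk1, Stk39 and Lrrc8a stayed below 0, at -0.13, -0.01 and -0.05. This marker mean was low in HET 2 and HET 3, so it is partly confounded with genotype. With the mean of choroid plexus markers as the covariate instead, all 8 estimates stayed below 0, from -0.22 in Wnk1 to -0.03 in Slc12a4 and Oxsr1. In the fit without a covariate, the 95% intervals reached down to -0.62 (Wnk1) at most. A loss of 50% of the transcript corresponds to -0.79 to -0.98 on this scale, depending on the gene. It lay outside the interval in 8 of 8 tested members.

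**Figure D1:**
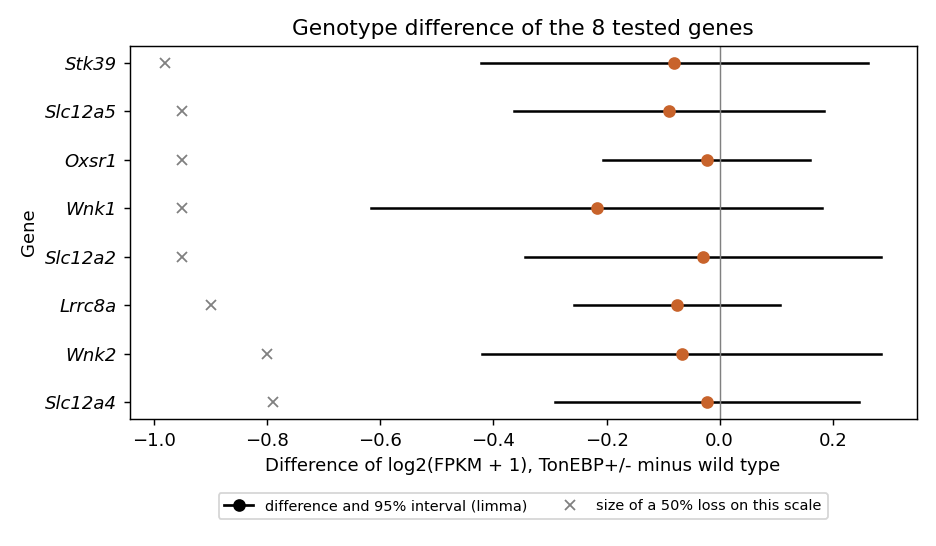
Difference of log2(FPKM + 1) between TonEBP+/- and wild-type libraries (x axis) for the 8 tested genes (y axis), with 95% intervals from limma over 3 libraries per genotype. Crosses mark where a 50% loss of the gene would lie. Each interval includes 0 and ends short of its cross.

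The levels spanned from 58.0 FPKM for Stk39 to 0.853 FPKM for Slc12a7 (means of 6 libraries). Stk39 was above every other member in 6 of 6 libraries, and its mean exceeded that of 90.5% of the genes tested. Slc12a5 (28.7 FPKM), Oxsr1 (27.7), Wnk1 (27.3) and Slc12a2 (25.2) followed, and the ranges of each neighbouring pair among these 4 overlapped. Lrrc8a (12.3 FPKM) lay below Slc12a2 and above Wnk2 in 6 of 6 libraries without overlap. Wnk2 (5.69 FPKM) and Slc12a4 (5.37 FPKM) overlapped, with Wnk2 the higher in 4 of 6 libraries. Slc12a7 was the lowest in 6 of 6. FPKM values of different genes rest on the transcript lengths that the authors used, and these were not given in the sources used here.

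**Figure D2:**
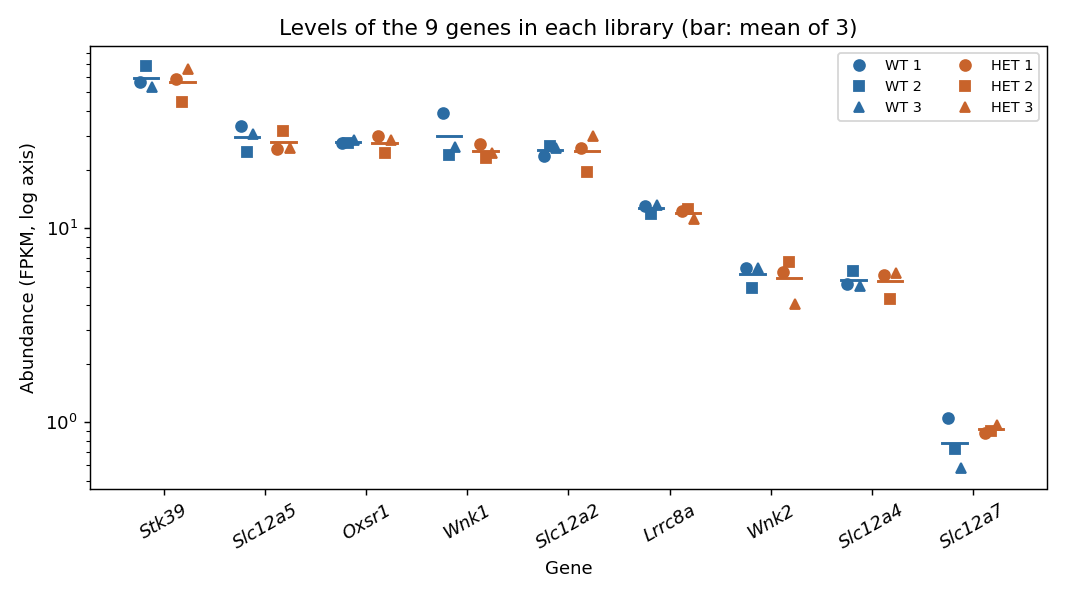
Abundance in FPKM (log axis) of the 9 genes, ordered by mean, in each library. Symbols stand for the 3 libraries of a genotype, bars for their means. The genotypes overlap in all 9 genes, Stk39 is the highest and Slc12a7 the lowest, near 1 FPKM.

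The chloride uptake gene Slc12a2 (chromosome 18, 57878512 to 57946821, GRCm38) stood at 23.5, 26.5 and 25.8 FPKM in WT 1 to WT 3 and at 25.9, 19.4 and 29.9 FPKM in HET 1 to HET 3. Both the lowest and the highest library carried the TonEBP+/- label, so the wild-type values lay inside the range of the other genotype. The means were 25.3 ± 1.6 FPKM and 25.1 ± 5.27 FPKM (SD, n = 3 each), with a log2 difference of -0.03 (SE 0.138, 95% interval -0.34 to 0.29, limma adjusted p = 1.00). Without HET 2 the difference was 0.14 (SE 0.0944), in the other direction.

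The neuronal extrusion gene Slc12a5 (chromosome 2, 164960846 to 164999731) had 33.6, 24.6 and 30.7 FPKM in WT 1 to WT 3, and 25.7, 31.6 and 25.8 FPKM in HET 1 to HET 3. WT 1, WT 3 and HET 2 formed the upper 3 values and WT 2, HET 1 and HET 3 the lower 3, a division that crosses the genotypes. The means were 29.6 ± 4.57 and 27.7 ± 3.37 FPKM (SD, n = 3 each), and the log2 difference was -0.09 (SE 0.121, 95% interval -0.36 to 0.18, limma adjusted p = 1.00). It ranged from -0.21 without WT 2 to 0.00 without WT 1. RefSeq lists a pair of start sites for this gene, and the deposited value does not separate the transcripts that begin at them.

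The ratio of Slc12a5 to Slc12a2, which is often read as the balance of chloride extrusion over uptake, was 1.43, 0.930 and 1.19 across WT 1 to WT 3, and 0.991, 1.63 and 0.865 across HET 1 to HET 3. HET 2 had the highest and HET 3 the lowest ratio, and the wild-type libraries lay between them. The mean ratio was 1.18 ± 0.251 in wild type and 1.16 ± 0.408 in TonEBP+/- (SD, n = 3 each). The log2 ratio differed by -0.06, with p = 0.9 in a two-sided exact permutation test, where 0.1 is the smallest p that 3 against 3 libraries allow. Without WT 1 the difference was 0.09, without HET 1 it was 0.02 and without HET 3 it was 0.12, so its direction rested on single libraries.

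**Figure D3:**
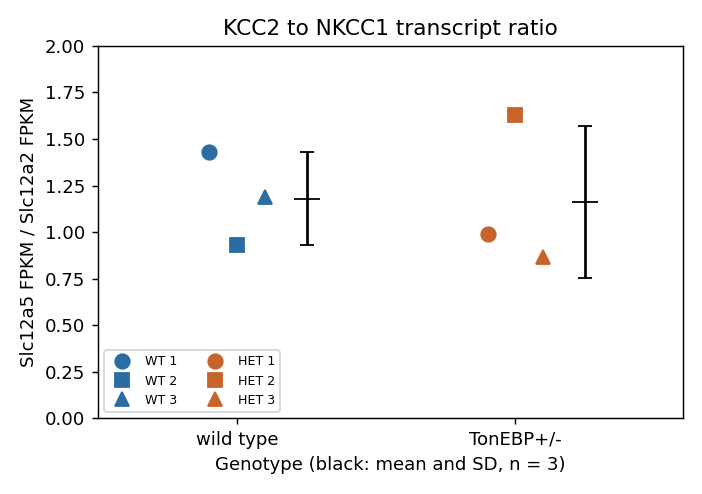
Ratio of Slc12a5 to Slc12a2 in FPKM (y axis) for each library, by genotype (x axis), with the mean and SD of 3 libraries in black. The TonEBP+/- libraries span 0.865 to 1.63 and enclose the wild-type range of 0.930 to 1.43.

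Slc12a4, whose product KCC1 is found in many cell types, was at 5.17, 6.01 and 5.05 FPKM in WT 1 to WT 3 (chromosome 8, 105943590 to 105966149) and at 5.77, 4.34 and 5.91 FPKM in HET 1 to HET 3. The lowest library was again HET 2. Its means of 5.41 ± 0.520 and 5.34 ± 0.867 FPKM (SD, n = 3 each) gave a log2 difference of -0.02 (SE 0.120, limma adjusted p = 1.00). The level of Slc12a5 was 4.10 to 7.27 times that of Slc12a4 in the single libraries.

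Slc12a7, the KCC4 gene (chromosome 13, 73733052 to 73816754), had 1.05, 0.729 and 0.579 FPKM in WT 1 to WT 3, and 0.885, 0.906 and 0.969 FPKM in HET 1 to HET 3. It reached 1 FPKM in 1 library and so stayed outside the main test. On the longest GENCODE transcript of 6987 bases, these values correspond to an estimated 39 to 85 fragments per library. The 3 TonEBP+/- values lay within the wild-type range. The difference of log2 values was 0.11 (two-sided exact permutation p = 0.4), and limma without the filter on low values gave an SE of 0.124 and an adjusted p of 0.999. The difference was 0.24 with a pseudocount of 0.1, 0.22 without WT 1 and 0.03 without WT 3.

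Among the kinase genes, Wnk1 had the largest difference of the members, and it rested on WT 1. Wnk1 (chromosome 6, 119923969 to 120038695) was at 39.2, 23.9 and 26.1 FPKM in WT 1 to WT 3 and at 27.1, 23.1 and 24.5 FPKM in HET 1 to HET 3. WT 1 stood 0.52 above the next library on the log2 scale, while the other 5 libraries lay between 23.1 and 27.1 FPKM. The means were 29.7 ± 8.30 and 24.9 ± 2.04 FPKM (SD, n = 3 each), which gave a log2 difference of -0.22 (SE 0.171, 95% interval -0.62 to 0.18, limma adjusted p = 1.00). Without WT 1 it was -0.01 (SE 0.0925). WT 1 exceeded the next library by at least as much in 15 genes tested, Wnk1 included. These also held the RNA-binding protein genes Pabpc1 (47.7 FPKM in WT 1 against 21.0 to 27.0 in the others) and Snrpn (189 against 94.4 to 114), named after their values were seen. Snord57, Cpne2, Lyrm1 and Dnaja3 were among the rest. The same count was not made for the other libraries, so it does not set WT 1 apart from them. Wnk1 is known to give forms without a complete kinase domain, GENCODE lists 26 transcripts of it, and a value per gene does not separate them.

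Wnk2, a WNK kinase gene of brain (chromosome 13, 49036302 to 49148574), was at 6.25, 4.94 and 6.22 FPKM in WT 1 to WT 3 and at 5.95, 6.69 and 4.06 FPKM in HET 1 to HET 3. HET 2 was the highest library for Wnk2 and HET 3 the lowest, the reverse of their places in Slc12a2. The means of 5.80 ± 0.747 and 5.57 ± 1.36 FPKM (SD, n = 3 each) gave a log2 difference of -0.07 (SE 0.157, limma adjusted p = 1.00). Without HET 3 it was 0.11 (SE 0.125). Wnk1 was 3.45 to 6.28 times as high as Wnk2 in the single libraries.

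Stk39, the SPAK gene (chromosome 2, 68210445 to 68472108), was at 56.7, 68.4 and 53.1 FPKM in WT 1 to WT 3 and at 58.6, 44.9 and 66.0 FPKM in HET 1 to HET 3. HET 2 was lowest and WT 2 and HET 3 were highest, and the genotypes overlapped. The means were 59.4 ± 8.01 and 56.5 ± 10.7 FPKM (SD, n = 3 each), with a log2 difference of -0.08 (SE 0.148, 95% interval -0.42 to 0.26, limma adjusted p = 1.00). Its direction rested on single libraries, with 0.07 without HET 2, 0.02 without WT 2 and -0.20 without HET 3. Oxsr1, the OSR1 gene (chromosome 9, 119238432 to 119322684), was steadier, with 27.6, 27.6 and 28.3 FPKM in WT 1 to WT 3, then 29.7, 24.4 and 28.4 FPKM in HET 1 to HET 3. Only HET 2 lay below the wild-type libraries, and HET 1 and HET 3 lay above them. Its log2 difference was -0.02 (SE 0.0820, 95% interval -0.21 to 0.16, limma adjusted p = 1.00). Stk39 exceeded Oxsr1 in every library, by 1.84 times (HET 2) to 2.48 times (WT 2).

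Lrrc8a (chromosome 2, 30237769 to 30263790) was at 13.0, 11.8 and 13.2 FPKM in WT 1 to WT 3 and at 12.3, 12.5 and 11.1 FPKM in HET 1 to HET 3. Its values had the smallest spread of the 9 genes, with an SD within genotype of 0.0830 on the log2 scale, where the median of all genes tested was 0.117. The SDs of Slc12a2, Slc12a4, Slc12a5, Wnk1, Wnk2 and Stk39 were larger and exceeded those of 74.8% (Slc12a4) to 93.4% (Wnk1) of the genes tested. The means of 12.7 ± 0.759 and 12.0 ± 0.75 FPKM (SD, n = 3 each) gave a log2 difference of -0.08 (SE 0.0812, 95% interval -0.26 to 0.11, limma adjusted p = 1.00). The gene 1700084E18Rik overlaps Lrrc8a on the opposite strand and was at a mean of 0.151 FPKM.

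Because TonEBP binds a tonicity-responsive element (TonE), the promoters of the members were searched for it. RefSeq gives 10 promoters (250 bases before to 50 after the start, GRCm38.p6) for 8 of the members, all except Slc12a2. The core of the element, TGGAAA on either strand, was present in 2 of these 10, against 21.4% of all 32851 promoters in the table. The longer TonE consensus, of which the core is a part, was present in 1 of 10, against 4.96% of all. The 2 matches are shown because they are the only ones in these 10 promoters, with the match in capitals, 5′ to 3′ on the strand of the gene.
Stk39: cccagcgcgTGGAAACTTCCctggcggcga
Wnk2: ggatttgcttaaTGGAAAagagggacacag
The Stk39 stretch (chr2:68472188-68472217, minus strand) holds the TonE consensus, 227 bases before the start that this promoter table uses (68471981), and overlaps an exon of Stk39 in GENCODE. The Wnk2 stretch (chr13:49148432-49148461, minus strand) holds only the core, 121 bases before the start in the table (49148328), and lies within the span of Wnk2 given above, which reaches further out than that start. These are matches of letters and not measured binding, and neither Stk39 nor Wnk2 differed between genotypes in limma, as given above.

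In 9 of 9 members the SD within a genotype exceeded the size of the difference between genotypes (0.0830 to 0.273 against 0.02 to 0.22 on the log2 scale). The share of all genes tested for which this holds was not computed, so the count is no result about the members. Several members shared a pattern over the libraries. Slc12a2, Slc12a4 and Stk39 shared HET 2 as their lowest library (-0.35, -0.25 and -0.35 relative to their means on the log2 scale), and WT 2 and HET 3 were their highest. Slc12a5 went the other way, at 0.14 in HET 2, -0.20 in WT 2 and -0.14 in HET 3. Choroid plexus, the tissue that makes cerebrospinal fluid and expresses NKCC1 strongly, borders the hippocampus, and 10 of its 10 markers passed the filter, with 0 at 0. Their summed level was 1070, 2920 and 287 FPKM in WT 1 to WT 3 and 1820, 102 and 3500 FPKM in HET 1 to HET 3, led by the transthyretin gene Ttr (87.4 FPKM in HET 2 to 3340 FPKM in HET 3). HET 2 was thus lowest and HET 3 and WT 2 highest in these markers as well. With their mean as a covariate, the log2 difference of Stk39 was -0.10 with an SE of 0.0632 in place of 0.148, that of Slc12a2 was -0.04 with an SE of 0.0927 in place of 0.138, and that of Slc12a4 was -0.03 with an SE of 0.0902 in place of 0.120. The SE was smaller with this covariate in 7 of the 8 tested members, Slc12a5 (0.0908 in place of 0.121) and Wnk2 (0.111 in place of 0.157) among them, and larger in Wnk1, and it was smaller in 61.5% of all genes tested. None of the 3 differences passed (limma adjusted p = 0.989 to 0.996), and in bulk tissue fewer cells of a type and less RNA per cell cannot be told apart.

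**Figure D4:**
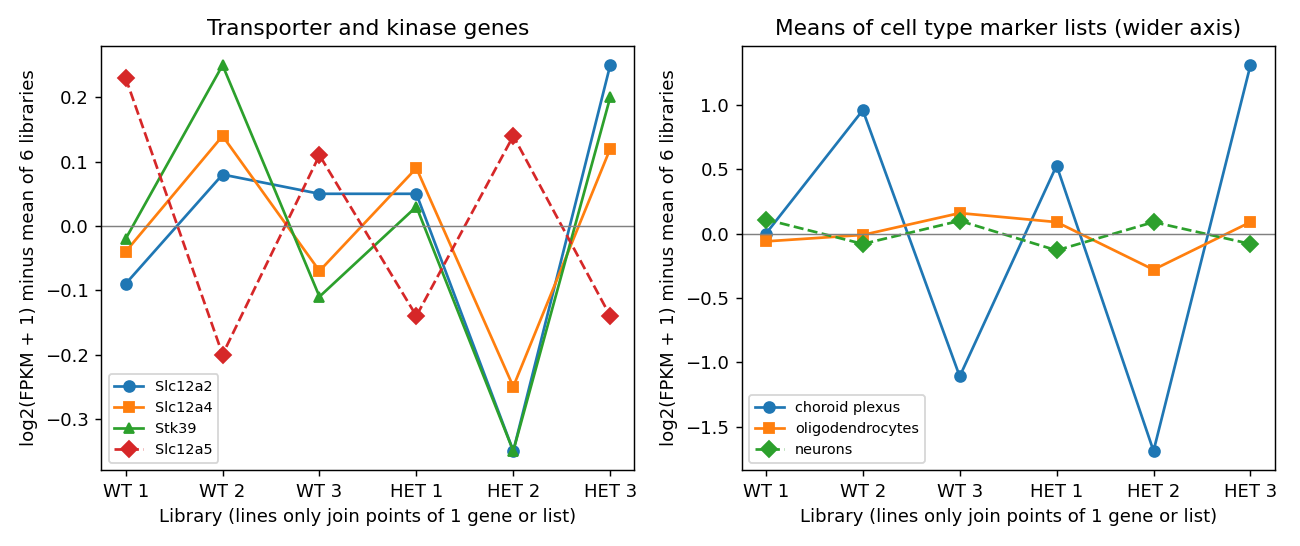
Log2(FPKM + 1) minus the mean of the 6 libraries (y axes) for 4 members (left) and for the mean of 3 marker lists (right, on a wider axis) in each library (x axes). HET 2 is the lowest library for Slc12a2, Slc12a4, Stk39 and the choroid plexus and oligodendrocyte lists, while Slc12a5 and the neuron list are above 0 in WT 1, WT 3 and HET 2.

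HET 2 was also the lowest library for the markers of oligodendrocytes (-0.28 by their mean log2 value), hippocampal fields (-0.14) and microglia (-0.11). The oligodendrocyte markers were highest in WT 3 (0.16), followed by HET 1 and HET 3 (0.09 each), with WT 2 at -0.01. The 8 oligodendrocyte markers, all above the filter, summed to 3920 to 4140 FPKM in wild type and 3160 (HET 2) to 4430 FPKM (HET 1) in TonEBP+/-. The 8 neuron markers summed to 1710 to 1890 FPKM in wild type and 1690 to 1900 FPKM in TonEBP+/-. Their mean log2 values were above 0 in WT 1, WT 3 and HET 2 (0.11, 0.10 and 0.09) and below 0 in the other 3, the same division as in Slc12a5. Snap25, Syt1, Slc17a7, Gad1, Gad2 and Stmn2 followed this division. Rbfox3 did not, being lowest in WT 3 (32.1 FPKM). Nor did Tubb3, which was lower in WT 1 (124 FPKM) than in WT 2 (130 FPKM) and HET 1 (128 FPKM). The division was not limited to neuron markers. The mean of the endothelial and mural cell markers was 0.02, 0.11 and 0.21 in WT 1, WT 3 and HET 2. In WT 2, HET 1 and HET 3 it was -0.14, -0.02 and -0.18. The part of these cell types in the values of Slc12a2, Stk39 and Slc12a5 was not tested. Among 8796 genes with a mean of at least 5 FPKM, the patterns most like that of Slc12a5 over the 6 libraries were those of Dnm1, which encodes the neuronal form of dynamin, Cadm3, a cell adhesion molecule gene, and Cacna1b, a calcium channel gene (root mean square differences of 0.0260, 0.0308 and 0.0316 on the log2 scale, where the median gene was at 0.185). Those most like Slc12a2 were Ermn, which encodes a cytoskeletal protein of myelinating oligodendrocytes, Trem2, a microglial receptor gene, and Sept4, a septin gene (0.0515, 0.0543 and 0.0577, with a median of 0.203). Ermn is itself in the oligodendrocyte list and Trem2 in the microglia list.

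The files differ in how they list absent genes, which divides the libraries in another way. WT 2 and HET 2 list 6210 and 6917 genes at exactly 0, and the other 4 libraries list 4262 at 0 and 2199 to 2609 more at values under 0.001 FPKM. Between WT 2 and HET 2 alone, the log2 difference was -0.43 for Slc12a2, -0.39 for Slc12a4, -0.60 for Stk39 and 0.35 for Slc12a5. Among the other 4 libraries, 2 against 2, it was 0.17 (SE 0.0983), 0.16 (SE 0.108), 0.18 (SE 0.0856) and -0.31 (SE 0.0829) for the same genes in that order, with limma adjusted p of 0.434 to 0.737. Wnk1 (-0.05 and -0.30) and Slc12a7 (0.14 and 0.10) had the same direction in both sets, and the other members had opposite directions. WT 2 against HET 2 is a single library of each genotype, and several members share a pattern over the libraries. The share of all genes with opposite directions was not computed, so these directions are no result about the members.

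Further genes of the same pathways were described from lists of 50, of which 42 were tested. With limma, 0 of 42 were past the threshold of 0.05 after adjustment, and 0 of 42 had an unadjusted p under 0.05 (0% and 3.69% of all genes tested), 21 of 42 differences were below 0 and the median was 0.00, where that of all genes tested was 0.00 as well. The genotypes did not overlap in 2 of 42, against 8.52% of all genes tested. The other cation-chloride cotransporter genes were tested in 2 of 5 cases. Slc12a9 had a log2 difference of -0.11 (SE 0.102). The renal transporter genes Slc12a1 and Slc12a3 were listed at no more than 0.0462 FPKM in any library.

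Of the other WNK pathway genes, 9 of 10 were tested and 0 passed. Cul3, which encodes the scaffold of the ubiquitin ligase that degrades WNK kinases, had the smallest p, with a log2 difference of -0.19 (SE 0.134). It was at 45.8 FPKM in WT 1 and at 30.7 to 32.1 FPKM in the other 5 libraries, so that WT 1 stood apart as it did in Wnk1. Klhl2, an adaptor of that ligase, had a difference of 0.07 (SE 0.0747), and Nedd4l, a ubiquitin ligase gene, one of -0.08 (SE 0.0894).

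Of the other channel genes, 12 of 15 were tested and 0 passed. Lrrc8c and Lrrc8b, which encode partners of LRRC8A in the anion channel, had log2 differences of 0.24 (SE 0.132) and 0.10 (SE 0.0712). Lrrc8c was at 4.59, 3.98 and 4.69 FPKM in WT 1 to WT 3 and at 4.26, 6.39 and 5.72 FPKM in HET 1 to HET 3, where HET 1 lay within the wild-type range. Clcn3, a chloride-proton exchanger gene of endosomes and synaptic vesicles, had 52.8, 49.0 and 49.0 FPKM in WT 1 to WT 3, then 44.1, 46.5 and 48.4 FPKM in HET 1 to HET 3. Its genotypes did not overlap, which held for 8.52% of all genes tested, and the log2 difference of -0.12 (SE 0.0678) did not pass in limma (adjusted p = 1.00).

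Of the sodium, proton and bicarbonate carriers and carbonic anhydrases, 9 of 10 were tested and 0 passed. Slc4a4, a sodium-bicarbonate cotransporter gene of astrocytes, had a log2 difference of -0.18 (SE 0.110), Slc4a8 of -0.11 (SE 0.101) and Car7, a neuronal carbonic anhydrase gene, of -0.13 (SE 0.135). Of the sodium pump and water channel genes, 10 of 10 were tested and 0 passed. Atp1b1, a sodium pump subunit gene, was at 436, 396 and 433 FPKM in WT 1 to WT 3 and at 354, 392 and 380 FPKM in HET 1 to HET 3. Its genotypes did not overlap, as in 8.52% of all genes tested (log2 difference -0.17, SE 0.0830, limma adjusted p = 1.00). Atp1b2, its glial counterpart, had a difference of -0.12 (SE 0.117), and Fxyd1, a pump regulator gene also made in choroid plexus, one of 0.34 (SE 0.218). Fxyd1 was highest in HET 3 and WT 2 (101 and 85.5 FPKM), the libraries with the highest choroid plexus marker sums, and its genotypes overlapped.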

How the data were processed

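Libraries of hippocampal RNA were prepared with a stranded NEBNext kit, per the labels' protocols, and the submitters' processing notes name TopHat and the mm10 build. The annotation and the quantifier were not given in the sources used here. The authors deposited log2 values with no unit named. Undoing log2(value + 1) gave numbers that behave as FPKM: low values of genes with 1 transcript lay within 0.15 of a whole step in 64.5% to 67.7% of cases per library (23.3% to 26.2% at the median of other step sizes). With another log base the differences would change. The 13122 genes reaching 1 FPKM in at least 3 libraries entered a fit in limma 3.58.1 under R 4.3.3 (genotype only, trend and robust options). P-values were adjusted by Benjamini-Hochberg over all of them, with a threshold of 0.05. Adjusted p-values are from this fit unless another filter, covariate or set of libraries is named beside them. The ratio and Slc12a7 were compared with two-sided exact permutation tests.

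In data simulated for this comparison from 13122 genes (10 draws of 200 changed genes), log2 changes of 0.3, 0.5, 0.75 and 1 were recovered at 8.80%, 45.8%, 73.2% and 85.0%. The changed genes were drawn from all genes tested, whereas most members had a larger SD than the median gene, so these shares do not hold for them. Positions and promoters are from RefSeq (GRCm38.p6, the assembly of mm10). Clcn4, a gene of the pathway lists, was not analysed here. A further gene of these lists is not reported here. The members and lists were chosen with earlier results of these data known. Named by rule were all 9 members, Nfat5, the 3 genes with the smallest p of each pathway list, and the 3 patterns most like Slc12a5 and Slc12a2. Same-numbered libraries did not deviate together, so no pairing was used. Alternatives were a replicate block, leaving out each library, 2 scalings, 2 filters, a pseudocount of 0.1 and eBayes without its robust option. Further alternatives were covariates for choroid plexus markers and for thalamus and habenula markers and, added after seeing the data, the kind of file. Figures were drawn with matplotlib 3.10.9.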

Additional observations from a re-analysis of the deposited data

How the results depend on the processing

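Members past the threshold stayed at 0 under every alternative run, and so did pathway genes past it. The count over all genes was 0 under every alternative that kept all 6 libraries or left out WT 2 and HET 2 together, and 0 to 8 with a single library left out (8 without HET 1, 1 each without WT 1, WT 2 and HET 3); at an adjusted p of 0.1 it was 0. With limma and a replicate block 0 genes passed and 384 had an unadjusted p under 0.05, against 484 without it. The same-numbered libraries correlated at -0.21, -0.25 and -0.16 in their deviations, 0 of 6 libraries correlated best with its own number. In this balanced design a block or a term for the kind of file cannot move an estimate. With a library left out, the difference of the log2 ratio of Slc12a5 to Slc12a2 (-0.06 in all, and with the block) ranged from -0.33 to 0.12, and the log2 differences from -0.16 to 0.14 in Slc12a2, -0.09 to 0.10 in Slc12a4, -0.19 to 0.11 in Wnk2, -0.20 to 0.07 in Stk39, -0.08 to 0.06 in Oxsr1, -0.21 to 0.00 in Slc12a5, -0.35 to -0.01 in Wnk1, -0.12 to -0.03 in Lrrc8a and 0.03 to 0.22 in Slc12a7. With the thalamus and habenula covariate they were 0.02 in Slc12a2, 0.07 in Slc12a4, 0.01 in Wnk2, 0.06 in Oxsr1, -0.18 in Slc12a5, -0.13 in Wnk1, -0.01 in Stk39 and -0.05 in Lrrc8a. Without WT 2 and HET 2, an alternative chosen after seeing the data, they were 0.17 in Slc12a2, 0.16 in Slc12a4, 0.18 in Stk39 and 0.05 in Oxsr1. The other tested members lay further below 0 than in all 6 libraries, at -0.31 in Slc12a5, -0.30 in Wnk1, -0.29 in Wnk2 and -0.15 in Lrrc8a. In this fit 1 of 8 members had an unadjusted limma p under 0.05, against 1106 of all 13122 genes tested. The cause of these shifts was not tested. Of 105 values of members under alternatives that can move an estimate, 90 kept their direction. The values of Slc12a7 rest on the fewest fragments of the 9 genes.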
